A study of Mus musculus with 28 samples.

Results

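The growing oocytes with high *Gdf9* were taken from 4 single-cell RNA-seq libraries of mouse ovary. A barcode was counted among them when it held at least 1000 genes and 10000 UMIs, at most 20% mitochondrial UMIs, at least 0.3% of its UMIs in *Zp3*, *Ooep*, *Gtsf1*, *Dppa3* and *Dppa5a* together, and a *Gdf9* level of at least 1000 CPM (its UMIs scaled to the same total in every cell). A UMI is a molecular tag that lets each captured RNA molecule be counted once, at its 3′ end, so that a CPM here is not scaled by gene length. The rule found 86 barcodes among 422 oocytes, which were themselves drawn from 38274 barcodes within the quality limits and 40594 barcodes in all. The remaining 336 oocytes met every limit except that on *Gdf9* and are called the other oocytes. Since *Gdf9* and the 5 gate genes chose the cells, the levels of genes in growing against other oocytes are a description and were not tested.

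The ovaries came from wild-type (WT) and *Chek2*-/- (Chek2KO) females. The Chek2KO line carries the Chek2tm1b(EUCOMM)Hmgu null allele of the kinase gene *Chek2* in all cells, and C57BL/6J mice were among those used in the study. Females received 0.5 Gy of ionizing radiation (IR) or a sham dose of 0 Gy (nonIR), and ovaries were taken 6 h later. Each of the 4 single-cell libraries (WT nonIR, WT IR, Chek2KO nonIR and Chek2KO IR) held the pooled, enzymatically dissociated and strained ovaries of 4 females aged 7 days. There was 1 such library per condition, so differences between these libraries have no replicate check and carry no p-value. The same 4 conditions were measured in 24 bulk RNA-seq libraries of whole ovary, 6 per condition.

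Oocytes of the resting, primordial follicle are small and arrested in meiotic prophase. When a follicle is recruited, the oocyte grows, lays down the zona pellucida from the glycoproteins ZP1, ZP2 and ZP3, and secretes GDF9 and BMP15, members of the transforming growth factor family that act on the surrounding granulosa cells. It also stores maternal RNA and proteins for the embryo, among them the subcortical maternal complex, of which OOEP and NLRP5 are subunits. After DNA breaks, CHEK2 activates p53 and the oocyte protein TAp63. Between them their targets include *Cdkn1a*, *Mdm2* and the cell-death genes *Bbc3* and *Pmaip1*. In the ovary the study found *Cdkn1a* to be induced by p53 and not by TAp63, and *Cbr2*, *Ankrd65*, *Fermt1* and *Fermt3* by TAp63.

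The start-proximal sequence is shown for 3 of the genes on which the results turn: *Zp3*, whose level in single cells followed *Zp2*, and *Bmp15* and *Oosp1*, whose levels followed *Gdf9*. Each run is the 250 bases before the RefSeq start site in GRCm38.p6, 5′ to 3′ on the gene's own strand. *Zp3* lies on the plus strand at chr5:135979855-135980104, *Bmp15* on the minus strand at chrX:6320725-6320974, and *Oosp1* on the minus strand at chr19:11691052-11691301. Capitals mark CANNTG, the letters read by basic helix-loop-helix factors such as FIGLA, and TAATTA, one of the letter sets read by the homeodomain factor NOBOX.
Zp3: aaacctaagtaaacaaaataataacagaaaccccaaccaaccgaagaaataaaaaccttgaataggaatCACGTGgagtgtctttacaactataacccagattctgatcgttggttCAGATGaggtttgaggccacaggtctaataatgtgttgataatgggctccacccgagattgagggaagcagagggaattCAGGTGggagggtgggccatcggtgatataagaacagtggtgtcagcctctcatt
Bmp15: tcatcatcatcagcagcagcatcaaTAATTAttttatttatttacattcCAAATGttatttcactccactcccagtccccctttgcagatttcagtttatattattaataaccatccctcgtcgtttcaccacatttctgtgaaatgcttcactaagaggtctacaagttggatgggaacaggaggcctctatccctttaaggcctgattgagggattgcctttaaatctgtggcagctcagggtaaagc
Oosp1: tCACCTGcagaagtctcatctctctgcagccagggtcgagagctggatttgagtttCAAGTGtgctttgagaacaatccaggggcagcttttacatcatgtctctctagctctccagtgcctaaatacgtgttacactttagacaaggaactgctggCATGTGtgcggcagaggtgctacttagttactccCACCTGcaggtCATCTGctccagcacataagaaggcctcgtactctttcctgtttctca
The *Zp3* window held 3 CANNTG matches, the *Bmp15* window 1 and the *Oosp1* window 5, and the *Bmp15* window was the one of the 3 with a TAATTA match. Both strands were searched, and no marked stretch overlapped another. Of 32851 RefSeq promoter windows of this length, 66.2% held CANNTG and 4.84% held TAATTA. Of the 38 growing-oocyte genes that were followed in bulk, 27 were in the promoter table, in 31 windows, of which 27 held CANNTG and 3 held TAATTA. A match is a description of letters and not a binding site.

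The libraries held 9488 to 11053 barcodes, of which 69 to 162 were oocytes. In each library all 6 marker genes (*Gdf9*, *Bmp15*, *Zp1*, *Zp2*, *Zp3* and *Ooep*) had a higher CPM in growing than in other oocytes. The growing oocytes fell into a shallow set of 34 barcodes with at most 79154 UMIs and a deep set of 52 with at least 186564, with none between. The deep set held 17, 10, 9 and 16 barcodes of WT nonIR, WT IR, Chek2KO nonIR and Chek2KO IR, and the shallow set 23, 9, 1 and 1, so the sets did not make up the same share of each library. Mitochondrial UMIs were at most 1% in 6, 5, 0 and 1 growing oocytes, all of them shallow. A doublet caller marked none of the 86. The 14 granulosa cell markers took at most 0.324% and the 7 stroma markers at most 0.69% of the UMIs of any growing oocyte, against 0.252% to 0.313% and 0.428% to 0.557% of the UMIs of the barcodes outside the oocyte gate. *Gdf9* itself stood at 3 to 10.5 CPM in those barcodes, of which 5.09% to 12.5% held a *Gdf9* UMI. The cell barcode of 34 of the 86 growing oocytes, and of 32 of the 52 deep ones, was also listed in another library, compared with 9 of the 336 other oocytes and 416 of all 40594 barcodes. None of those 63 matches passed the oocyte gate, and in 3 libraries the match held at most 0.193% of the UMIs of the growing oocyte. In WT nonIR, 1 match held 16255 UMIs, 31.5% of those of its growing oocyte. *Chek2* stood at 10.6 CPM in WT nonIR and 8.39 CPM in WT IR growing oocytes, and at 1.55 CPM in Chek2KO nonIR and 0.947 CPM in Chek2KO IR. Whether the 3′ tags of *Chek2* lie inside the deleted part is not stated in the labels or methods, so this was not taken as a check of the labels.

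Growing oocytes made up 0.414% of the barcodes within the quality limits in WT nonIR (40 of 9666, exact Clopper-Pearson 95% limits 0.296% to 0.563%). The share was 0.184% in WT IR (19 of 10345, limits 0.111% to 0.287%), 0.11% in Chek2KO nonIR (10 of 9091, limits 0.0528% to 0.202%) and 0.185% in Chek2KO IR (17 of 9172, limits 0.108% to 0.297%). WT nonIR had the highest share, its limits overlapped those of Chek2KO IR by a narrow margin and not those of WT IR or Chek2KO nonIR, and the limits of the other 3 libraries overlapped one another. Among deep growing oocytes alone the shares were 0.176%, 0.0967%, 0.099% and 0.174%, and the limits of all 4 libraries overlapped. As a share of the oocytes, growing oocytes were 24.7% in WT nonIR (limits 18.3% to 32.1%), 22.1% in WT IR (13.9% to 32.3%), 14.5% in Chek2KO nonIR (7.17% to 25%) and 16.2% in Chek2KO IR (9.72% to 24.7%), and all 4 ranges overlapped. These limits cover counting error only, and a recovery that differs between dissociations cannot be told apart from a difference between ovaries.

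**Figure D1:**
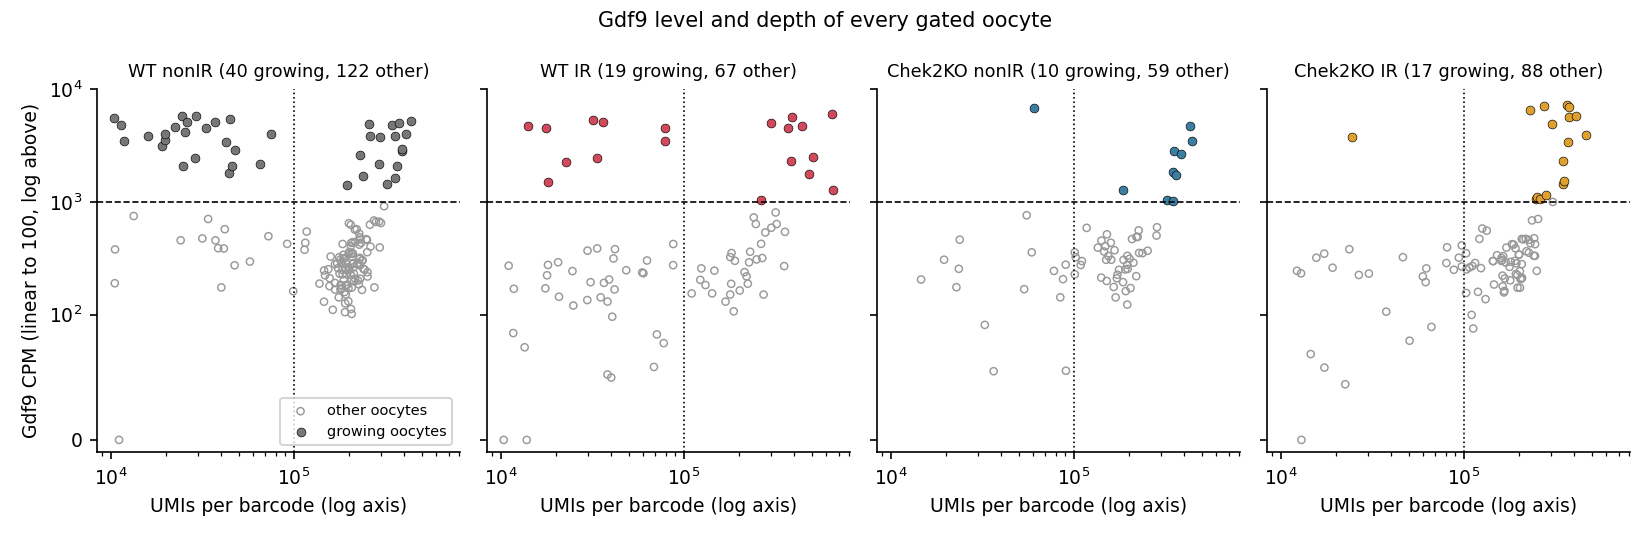
Each point is 1 of the 422 oocytes, with its UMIs on a log axis and its *Gdf9* CPM on an axis that is linear to 100 and log above; the dashed line is the 1000 CPM limit and the dotted line marks 100000 UMIs. Filled points are the 40, 19, 10 and 17 growing oocytes of the 4 libraries; shallow growing oocytes (left of the dotted line) were mostly from WT nonIR (23) and WT IR (9).

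*Gdf9* (ENSMUSG00000018238) ran from 1423 to 5800 CPM with a median of 3759 in the growing oocytes of WT nonIR. It ran from 1031 to 5982 CPM (median 4486) in WT IR, from 1006 to 6827 CPM (median 2250) in Chek2KO nonIR and from 1051 to 7177 CPM (median 3771) in Chek2KO IR. The 4 ranges overlapped over almost their whole length. Just outside the limit, the highest other oocyte stood at 913, 804, 759 and 997 CPM in the same order. On either side of it, 15, 7, 6 and 5 other oocytes of the 4 libraries lay between 500 and 1000 CPM, and 5, 4, 5 and 6 growing oocytes between 1000 and 2000 CPM. In Chek2KO IR the oocytes on either side of it, at 997 and 1051 CPM, were nearly alike.

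The secreted and zona genes differed in how far they separated growing from other oocytes. *Gdf9* was 2530 to 3918 CPM in the summed UMIs of growing oocytes and 324 to 337 CPM in the other oocytes of the 4 libraries. *Bmp15* was 71.2 to 274 CPM in growing and 3.30 to 4.91 CPM in other oocytes, a wider gap than that of *Gdf9* although *Bmp15* was not used by the rule. *Fgf8*, a secreted growth factor of the oocyte, was 20.1 to 142 CPM in growing oocytes and 0.322 to 0.976 CPM in the others. The zona genes were already present in the other oocytes: *Zp2* was 2229 to 3304 CPM in growing and 1158 to 1762 CPM in other oocytes, and *Zp3* 2874 to 4360 and 1210 to 2040 CPM. *Zp1* was 754 to 844 CPM in growing and 219 to 376 CPM in other oocytes. Over all 13193 genes compared, 855 (6.48%) were at least 2-fold higher in growing oocytes in all 4 libraries and 754 (5.72%) were at least 2-fold lower. A gene with few UMIs in the other oocytes could enter this comparison only through the growing ones, so the lists were counted over the 11006 genes with at least 25 UMIs in the other oocytes of each library, of which 4.36% were 2-fold higher and 5.29% lower. These counts are descriptions, since the genes belong to the cells that the rule chose. Of the 5 secreted and zona genes with enough UMIs, 4 (*Bmp15*, *Gdf9*, *Zp1* and *Zp3*) were 2-fold higher in all 4 libraries, and *Zp2* was the exception. Among these, *Gdf9* made the split, so its direction was fixed in advance, and *Zp3* was a gene of the gate. Of 8 subcortical maternal complex genes 4 were 2-fold higher, among them *Khdc3* (449 to 507 CPM in growing, 43.7 to 75.4 CPM in other oocytes) and *Tle6* (1415 to 1729 and 544 to 742 CPM). *Ooep*, a gene of the gate, was 10355 to 12725 CPM in growing and 5169 to 7113 CPM in other oocytes.

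Most of the genes listed as oocyte-cluster genes belong to families that lie in tandem copies and are read mostly in the oocyte. Of 25 listed, 15 had at least 25 UMIs in the other oocytes of each library and 12 of these were 2-fold higher in all 4 libraries. *Oosp1*, a secreted oocyte protein, was 355 to 817 CPM in growing and 9.66 to 29.3 CPM in other oocytes. *Omt2a* was 98.7 to 265 CPM in growing and 4.80 to 6.84 CPM in other oocytes. *Bcl2l10*, a BCL2 relative found in oocytes, was 282 to 862 CPM and 28.4 to 85.0 CPM. Reads of near-identical family members are hard to assign to a single member, so single members of these families are uncertain. Of 10 genes that store or regulate maternal RNA with enough UMIs, 3 (*Btg4*, *Eif4e1b* and *Zar1*) were 2-fold higher. *Pabpc1l*, an oocyte poly(A)-binding protein, was 31.3 to 60.6 CPM against 0.0805 to 0.610 CPM, too few UMIs in the other oocytes to be counted. Of 14 genes of meiotic arrest and maturation with enough UMIs, 5 were 2-fold higher, including *Mos*, the kinase that holds the egg at metaphase (151 to 352 against 19.0 to 31.4 CPM). Of 14 genes that set chromatin and DNA methylation, 6 were 2-fold higher, including the oocyte linker histone *H1foo* (1280 to 2509 against 307 to 447 CPM) and *Npm2* (1131 to 1743 against 107 to 410 CPM).

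Genes of meiotic prophase were lower in growing oocytes in the level of a few members: of 19 with enough UMIs, 4 were 2-fold lower in all 4 libraries and none 2-fold higher. *Sycp3*, a protein of the synaptonemal complex, was 309 to 405 CPM in growing and 878 to 1091 CPM in other oocytes. *Sohlh1*, a transcription factor of early oocytes, was 159 to 255 CPM in growing and 347 to 498 CPM in other oocytes, and did not pass 2-fold in all 4. Of 10 oocyte transcription genes with enough UMIs none was 2-fold higher and 1 was 2-fold lower in all 4 libraries, *Taf7l* (0 to 1.12 CPM in growing and 4.27 to 7.43 CPM in other oocytes), while *Obox1*, *Obox2* and *Obox5* had too few UMIs in other oocytes to be counted. The transcription factors *Nobox*, *Figla* and *Lhx8* and the receptor *Kit* stayed within 2-fold in every library. None of 16 genes of follicle activation signalling passed 2-fold in either direction. The gene for TAp63, *Trp63*, was 44.7 to 73.0 CPM in growing and 48.1 to 72.6 CPM in other oocytes. By the rule for named genes, the highest ratios were those of *Cd200r3*, *Nlrp9b*, *Gm1965*, *Obox2*, *Obox5*, *Pabpc1l*, *Gm5*, *Gm43449*, *Fbxw16* and *Nlrp9c*. *Obox5*, an oocyte homeobox gene, was 27.5 to 133 CPM in growing and 0 to 0.242 CPM in other oocytes. The lowest were *Krt83*, *Ifi204*, *Dmrta2os*, *Tepp*, *Tslrn1*, *Pgm5*, *Inafm2*, *Gm46516*, *Crygb* and *Frmpd3*. *Krt83*, a keratin, was 1.05 to 2.78 CPM in growing and 22.6 to 42.6 CPM in other oocytes.

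**Figure D2:**
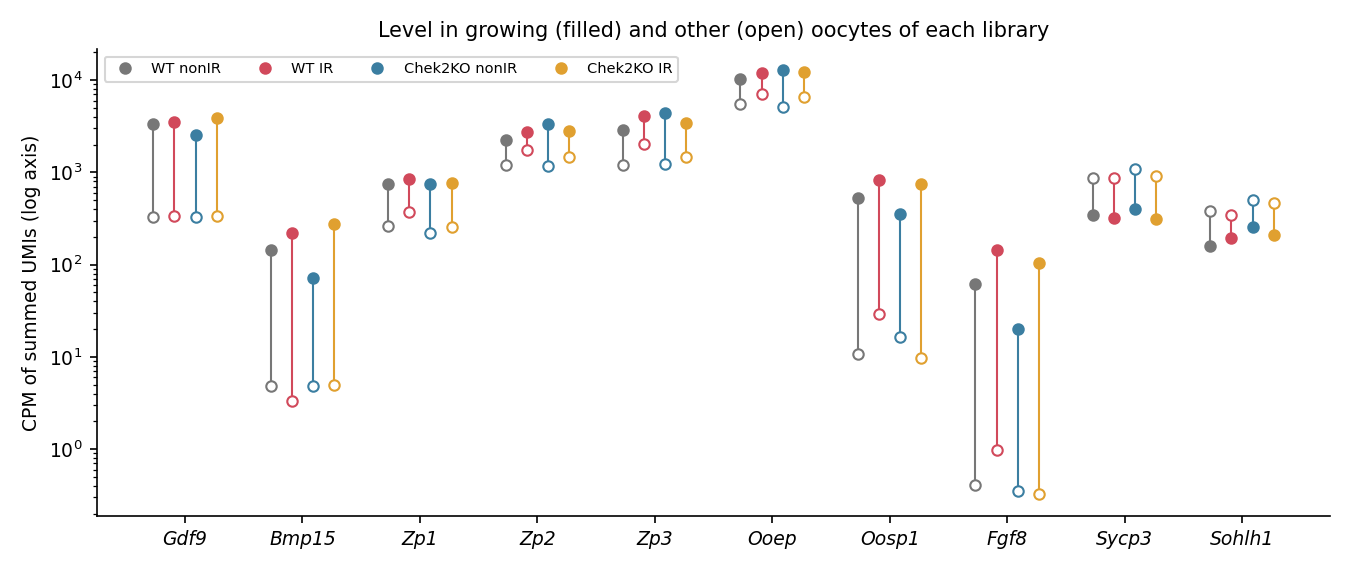
CPM of summed UMIs on a log axis for 10 genes, with a filled point for the growing and an open point for the other oocytes of each library. *Bmp15*, *Oosp1* and *Fgf8* separated the classes by the longest lines, *Zp2*, *Zp3* and *Ooep* by short ones, and *Sycp3* and *Sohlh1* ran the opposite way.

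Over the 422 oocytes the genes whose CPM ranked most like that of *Gdf9* were *Pkd2l2* (Spearman's rho 0.825), *Nlrp14* (0.803), *Tcl1* (0.796), *Kpna7* (0.791), *Oosp1* (0.784), *E330034G19Rik* (0.781), *Bpgm* (0.775), *Setd4* (0.771), *Parp12* (0.769) and *Oas1e* (0.769). These were the highest of 12230 genes compared. The points share libraries and differ in depth, and rho was between 0.747 and 0.831 for the same 10 genes over the 295 oocytes with at least 100000 UMIs.

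Within the 52 deep growing oocytes, *Gdf9* followed *Bmp15* (Pearson's r 0.787, Spearman's rho 0.912), and rho was between 0.826 and 0.939 in each of the 4 libraries. It also followed *Fgf8* (r 0.791, rho 0.878) and *Oosp1* (r 0.797, rho 0.863). It ran against *Zp2* (r −0.471, rho −0.458) and *Zp3* (r −0.413, rho −0.464), although both signs were positive over the 9 oocytes of Chek2KO nonIR (rho 0.0333 and 0.0833). With *Zp1* the relation was weaker (r −0.117, rho −0.142), negative in WT nonIR and WT IR (rho −0.189 and −0.745) and positive in Chek2KO nonIR and Chek2KO IR (rho 0.117 and 0.124). *Zp2* and *Zp3* followed each other (r 0.892, rho 0.885). *Gdf9* ran against *Sohlh1* (r −0.734, rho −0.795) and against the share of UMIs in ribosomal protein genes (r −0.880, rho −0.840), and less closely with the number of UMIs (r 0.197, rho 0.341). These correlations are over cells that share libraries and are given as descriptions.

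The ratio of *Gdf9* UMIs to those of *Zp1*, *Zp2* and *Zp3* together ran from 0.0941 to 2.19 over the 52 deep growing oocytes, with a median of 0.355. None lay between 0.465 and 0.579. The 29 with a ratio below 0.5 are called *Zp*-rich and the 23 with a higher ratio *Gdf9*-rich, a division chosen after the values had been seen. Of *Zp*-rich and *Gdf9*-rich oocytes, WT nonIR held 8 and 9, WT IR 5 and 5, Chek2KO nonIR 8 and 1, and Chek2KO IR 8 and 8. Chek2KO nonIR thus held the lowest share of *Gdf9*-rich oocytes among its deep ones, 11.1% with exact limits of 0.281% to 48.2%, which overlapped those of the other libraries (24.7% to 75.3% in Chek2KO IR). The division leaves out the shallow growing oocytes, most of which came from the WT libraries. With them included, the ratio was at least 0.5 in 27 of 40, 12 of 19, 2 of 10 and 9 of 17 growing oocytes of WT nonIR, WT IR, Chek2KO nonIR and Chek2KO IR.

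The *Gdf9*-rich oocytes had the higher levels of *Bmp15*, *Fgf8* and *Oosp1*. In WT nonIR *Bmp15* ran from 5.10 to 76.9 CPM (median 29.2) in *Zp*-rich and from 29.3 to 650 CPM (median 119) in *Gdf9*-rich oocytes, so the classes overlapped. In WT IR the classes did not overlap, at 7.61 to 31.1 CPM (median 14.5) and 150 to 881 CPM (median 314). In Chek2KO IR *Bmp15* ran from 16 to 66.6 CPM (median 24.3) and from 23.0 to 823 CPM (median 639). *Fgf8* had a median of 0, 2.07 and 0 CPM in the *Zp*-rich and of 61.5, 330 and 214 CPM in the *Gdf9*-rich oocytes of the same 3 libraries. *Oosp1* had medians of 193, 153 and 134 CPM in *Zp*-rich and 607, 1479 and 1175 CPM in *Gdf9*-rich oocytes. *Obox2* had no UMI in any of the 29 *Zp*-rich oocytes and reached 190, 260 and 243 CPM in *Gdf9*-rich oocytes of these libraries. *Sohlh1*, in the opposite direction, summed to 203, 323 and 368 CPM in *Zp*-rich and 130, 67.2 and 63.4 CPM in *Gdf9*-rich oocytes.

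**Figure D3:**
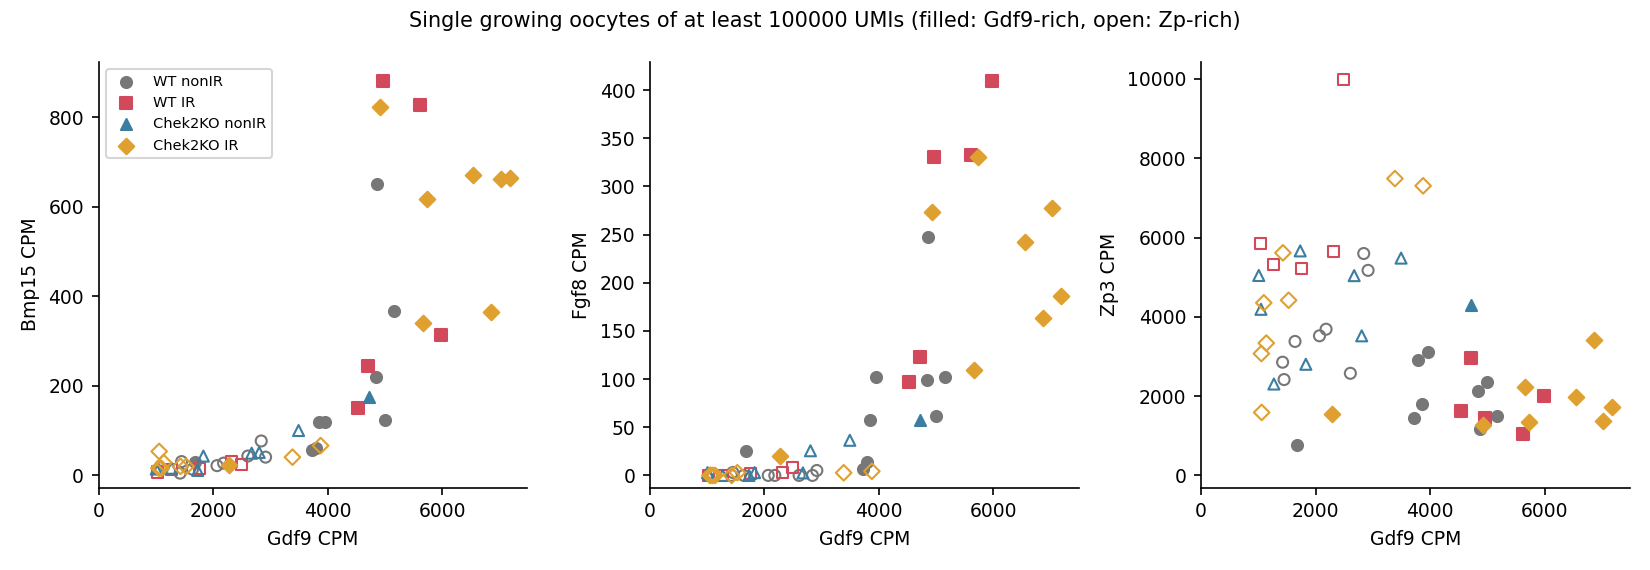
*Bmp15*, *Fgf8* and *Zp3* CPM against *Gdf9* CPM (linear axes) in the 52 deep growing oocytes, filled for the 23 *Gdf9*-rich and open for the 29 *Zp*-rich ones, with 1 marker shape per library. *Bmp15* and *Fgf8* were low where *Gdf9* was low and spread upward where it was high, while the highest *Zp3* levels (up to 9979 CPM) were in open symbols.

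Of 9778 genes compared between the classes in the 3 libraries that held several oocytes of both, 615 (6.29%) were at least 2-fold higher in *Gdf9*-rich oocytes in all 3 and 137 (1.40%) at least 2-fold lower. Lists were counted over the 7755 genes with at least 25 UMIs in the *Zp*-rich oocytes of each of the 3, of which 3.78% were higher and 1.55% lower, and as descriptions, since the division was chosen after the values had been seen. The oocyte-cluster genes had 8 of 15 members higher and none lower. Maternal RNA genes had 3 of 12 and chromatin genes 3 of 14 higher. The latter included *Dnmt1*, the maintenance DNA methyltransferase, at 961, 703 and 818 CPM in *Zp*-rich and 2615, 3149 and 3529 CPM in *Gdf9*-rich oocytes. *Dnmt3l*, the cofactor of de novo methylation, had too few UMIs to be counted, at 0, 2.62 and 1.16 CPM in *Zp*-rich and 7.73, 20.5 and 26.5 CPM in *Gdf9*-rich oocytes. *Bcl2l10* was at 175, 222 and 154 CPM in *Zp*-rich and 747, 1476 and 1521 CPM in *Gdf9*-rich oocytes. Of 9 subcortical maternal complex genes 2 were 2-fold higher in all 3 libraries and none was 2-fold lower. One of them was *Nlrp2* (30.6, 55.1 and 88.8 CPM in *Gdf9*-rich against 11, 20.1 and 11.3 CPM in *Zp*-rich oocytes). *Padi6* was 2515, 2393 and 2733 CPM against 3854, 5571 and 5701 CPM, within 2-fold in 1 of the 3.

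The question behind the irradiation comparison was how oocytes with and without CHEK2 respond to radiation damage. Of 10713 genes with at least 50 UMIs in the 2 libraries, 274 (2.56%) were at least 2-fold higher and 226 (2.11%) at least 2-fold lower in WT IR. Which count was larger turned with the settings: it was 406 higher and 424 lower with a *Gdf9* minimum of 500 CPM, 194 and 344 with 2000 CPM, 311 and 494 when single-cell CPM were averaged, and 165 and 119 when the UMI minimum was doubled. Among other oocytes (all depths) the counts were 957 (7.42%) and 875 (6.79%) of 12891 genes. Between libraries, genes were ranked by the Poisson limit of their ratio that lay nearest 1, which favours genes with many UMIs over genes with larger ratios and few UMIs. The 10 ranked highest in WT IR were *Fermt3*, *Fermt1*, *Cbr2*, *Procr*, *Gpr132*, *Slc6a8*, *Csf2rb*, *Cst6*, *Plch2* and *Ccdc88b*. *Fermt3*, an adaptor that activates integrins, had 298 UMIs (62.5 CPM) in 15 of 19 growing oocytes of WT IR and 0 UMIs in 40 growing oocytes of WT nonIR, and was at least 130-fold higher against a floor of 3 UMIs over the library. *Fermt1*, a relative of *Fermt3*, had 213 and 0 UMIs (at least 93.1-fold higher). *Cbr2*, a carbonyl reductase, had 166 and 0 UMIs (at least 72.5-fold). *Slc6a8*, the creatine transporter, was 71.1 CPM in WT IR and 1.44 CPM in WT nonIR (ratio 46.8, exact Poisson limits 25.7 to 109). These limits cover counting error only.

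Of the 31 p53 targets listed, 21 had at least 25 UMIs in the growing oocytes of WT nonIR, and 6 of these were at least 2-fold higher in WT IR and none 2-fold lower. Of all 10934 genes with that many UMIs, 1.55% were 2-fold higher and 2.76% lower. *Mdm2*, which encodes the ligase that degrades p53, was 640 CPM in WT IR and 95 CPM in WT nonIR (ratio 6.73, limits 6.17 to 7.37). *Cdkn1a*, the p21 cell cycle inhibitor, was 70.5 and 16.6 CPM (4.22, limits 3.39 to 5.33). *Ccng1* was 66.9 and 32.5 CPM (2.06, limits 1.72 to 2.47) and *Ddit4* 138 and 49.6 CPM (2.78, limits 2.43 to 3.19). *Bax*, a direct effector of cell death, was 134 and 107 CPM (1.25, limits 1.12 to 1.40) and stayed within 2-fold. The death genes *Bbc3* (22.0 and 1.60 CPM, ratio 13.2, limits 7.19 to 29.5) and *Pmaip1* (21.8 and 0.640 CPM, ratio 30.4, limits 12.9 to 127) had under 25 UMIs in WT nonIR and could pass only through WT IR. *Aen* was lower, at 98.1 and 169 CPM (0.582, limits 0.521 to 0.649), within 2-fold. In the 25 genes that the study named for its oocytes, a list chosen on these same cells and so no independent evidence of direction, 8 of the 11 with at least 25 UMIs in WT nonIR were 2-fold higher and 1 was 2-fold lower. The p53 targets share members with that list, among them *Mdm2*, *Cdkn1a*, *Ccng1*, *Ddit4*, *Bax* and *Bbc3*. Counts of p53 targets, here and below, are therefore not independent of it. *Mdm2* is also among the damage-signalling genes. Of 19 damage-signalling genes 2 were 2-fold higher and none lower, and *Trp63* was 44.7 and 55.0 CPM (0.812, limits 0.681 to 0.966).

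*Mdm2* and *Cdkn1a* had larger ratios in the other oocytes. *Mdm2* was 957 CPM in WT IR and 75.1 CPM in WT nonIR (ratio 12.8, limits 12.1 to 13.5). *Cdkn1a* was 253 and 45.3 CPM (5.59, limits 5.18 to 6.03). *Fermt3* was 185 and 1.03 CPM (175, limits 119 to 283), which cannot be ordered against the lower bound in growing oocytes. Of the p53 targets with at least 25 UMIs in WT nonIR, 15 of 28 were 2-fold higher in other oocytes, beside 6.00% of all 13359 genes. Growing and other oocytes of WT IR both came from 1 library, and a difference in the ratio between them was not tested. Markers of other cell types moved in the other oocytes too: with at least 25 UMIs in WT nonIR, 9 of 13 granulosa and 4 of 4 erythroid markers were 2-fold lower, beside 7.99% of all genes, and 3 of 3 surface epithelium, 2 of 4 endothelium, 1 of 1 macrophage, 1 of 7 stroma and 1 of 13 granulosa markers were 2-fold higher. The median depth of other oocytes was 77693 UMIs in WT IR and 198622 in WT nonIR, and the part of these differences was not tested.

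In WT IR the levels of *Mdm2*, *Cdkn1a*, *Fermt3*, *Slc6a8* and *Bbc3* were mostly higher in *Zp*-rich than in *Gdf9*-rich growing oocytes. For *Cdkn1a* a higher level in *Zp*-rich oocytes was not particular to WT IR. In Chek2KO IR, too, its level in *Zp*-rich oocytes stood above that over all growing oocytes, as given below. In the 5 *Zp*-rich oocytes of WT IR *Mdm2* was 385, 663, 1035, 1186 and 1451 CPM, and in the 5 *Gdf9*-rich oocytes it was 76.7, 215, 443, 481 and 568 CPM. The classes overlapped in this range, whereas in WT nonIR *Mdm2* ran from 58.3 to 108 CPM in *Zp*-rich and from 67.3 to 125 CPM in *Gdf9*-rich oocytes. All 5 *Zp*-rich oocytes of WT IR were therefore above every growing oocyte of WT nonIR in the deep set, and 4 of the 5 *Gdf9*-rich ones were. *Cdkn1a* was 109, 120, 124, 126 and 137 CPM in the *Zp*-rich and 3.34, 4.69, 12.8, 16.1 and 54.5 CPM in the *Gdf9*-rich oocytes of WT IR, with no overlap. In WT nonIR it ran from 7.66 to 66.3 CPM and from 0 to 36.5 CPM. In WT IR, 4 of the 5 *Gdf9*-rich oocytes thus lay inside the range of their nonIR counterparts for *Cdkn1a*. *Fermt3* was 72.3 to 221 CPM in the *Zp*-rich and 3.34 to 40.9 CPM in the *Gdf9*-rich oocytes of WT IR, and had no UMI in any of the 17 deep growing oocytes of WT nonIR. *Slc6a8* was 88.9 to 156 CPM in *Zp*-rich and 0 to 31.8 CPM in *Gdf9*-rich oocytes of WT IR, beside at most 4.19 CPM in WT nonIR. *Bbc3* was 19.7 to 49.2 CPM and 0 to 13.4 CPM.

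Summed over each class, *Mdm2* was 10.8-fold higher in WT IR than in WT nonIR among *Zp*-rich oocytes (limits 9.39 to 12.6) and 3.86-fold among *Gdf9*-rich ones (limits 3.38 to 4.43). *Cdkn1a* was 4.56-fold higher (limits 3.51 to 6.07) and 1.69-fold (limits 1.03 to 2.79). *Bax* was 1.49-fold higher in *Zp*-rich oocytes (limits 1.29 to 1.72) and had a ratio of 0.787 in *Gdf9*-rich ones (limits 0.643 to 0.959). *Ddit4* was 6.47-fold higher (limits 4.81 to 9.03) and 2.29-fold (limits 1.91 to 2.76), from a starting level of 19.2 CPM in *Zp*-rich and 64.2 CPM in *Gdf9*-rich oocytes of WT nonIR. Of the p53 targets with at least 25 UMIs in WT nonIR, 7 of 15 were 2-fold higher in *Zp*-rich and 2 of 15 in *Gdf9*-rich oocytes, beside 1.75% and 1.57% of all genes. Over genes with at least 50 UMIs in both libraries together, 3.55% were 2-fold higher and 3.11% lower in *Zp*-rich oocytes, and 2.3% higher and 2.42% lower in *Gdf9*-rich ones. *Trp63* was 21.7 to 59.9 CPM in the *Zp*-rich and 36.4 to 56.3 CPM in the *Gdf9*-rich oocytes of WT IR, and *Chek2* 3.8 to 12.9 and 0 to 16.1 CPM. Of markers with at least 25 UMIs in WT nonIR, 6 of 10 granulosa markers were 2-fold lower and 1 higher in *Zp*-rich oocytes and 6 of 8 were lower in *Gdf9*-rich ones, beside 4.43% and 3.99% of all genes lower, and 3 of 5 stroma markers were 2-fold higher in *Zp*-rich and none in *Gdf9*-rich oocytes. Their part was not tested. With 5 oocytes of each class in 1 library, the difference between the classes was not tested over samples.

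**Figure D4:**
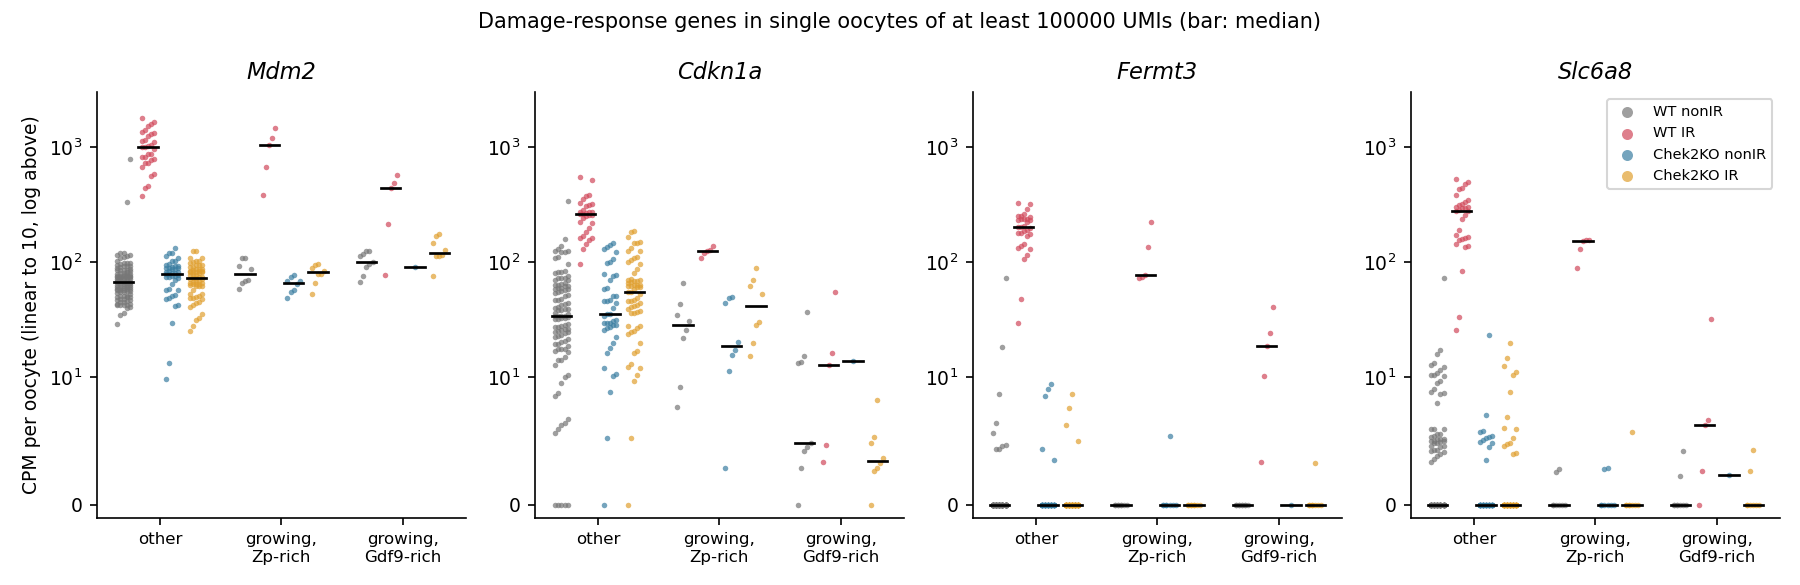
CPM per oocyte (linear to 10, log above) of *Mdm2*, *Cdkn1a*, *Fermt3* and *Slc6a8* in oocytes of at least 100000 UMIs, by class and library, with a bar at the median. WT IR medians stand above those of the other libraries, although single other oocytes of WT nonIR reached 790 CPM of *Mdm2*, and within WT IR the median of *Mdm2* was 993 CPM in other, 1035 CPM in *Zp*-rich and 443 CPM in *Gdf9*-rich oocytes, and that of *Cdkn1a* 259, 124 and 12.8 CPM. For *Cdkn1a*, most *Gdf9*-rich oocytes of WT IR lay inside the range of those of WT nonIR. The *Gdf9*-rich bar of Chek2KO nonIR is a single oocyte.

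The genes ranked lowest in WT IR growing oocytes were *Gm37350*, *Gm2044*, *AC167229.1*, *Gm14226*, *Fam13a*, *Nrn1*, *Hs6st2*, *Cdk6*, *Gatm* and *Fst*. *Gm37350* was 2.94 CPM in WT IR and 64.5 CPM in WT nonIR (ratio 0.0471, limits 0.0247 to 0.0773). Both Chek2KO libraries had little of it too (0.309 CPM in nonIR, 1.33 CPM in IR). *Fst*, the activin-binding protein of granulosa cells, was 7.13 and 36.8 CPM (0.196, limits 0.131 to 0.279). Marker lists of other cell types moved too. Of 11 granulosa markers with at least 25 UMIs in WT nonIR 7 were 2-fold lower in WT IR, and of 4 erythroid markers all 4 were, beside 2.76% of all genes with that many UMIs. The 1 surface epithelium marker and the 1 macrophage marker with that many were 2-fold higher, beside 1.55% of all genes, none of 7 stroma markers passed 2-fold, and no endothelium marker had enough UMIs in WT nonIR to be counted. In the deep set the granulosa markers took 0.00618% to 0.0857% of the UMIs of a growing oocyte in WT nonIR and 0.00473% to 0.0415% in WT IR. The part of these cell types in the higher and lower genes was not tested.

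In Chek2KO, of 9844 genes 345 (3.50%) were at least 2-fold higher and 55 (0.559%) at least 2-fold lower in growing oocytes of Chek2KO IR than of Chek2KO nonIR. *Mdm2* was 104 and 69.6 CPM (ratio 1.49, limits 1.27 to 1.75), *Cdkn1a* 24.8 and 22.9 CPM (1.08, limits 0.809 to 1.46) and *Bax* 124 and 146 CPM (0.850, limits 0.754 to 0.959). *Fermt3* had 0.189 and 0.309 CPM, and both were under 3 UMIs. Of 15 p53 targets with at least 25 UMIs in Chek2KO nonIR, 1 was 2-fold higher in Chek2KO IR and none lower, beside 2.11% and 0.751% of all 9185 genes. That gene was *Ddit4*, a stress-induced inhibitor of mTOR signalling, at 90.7 and 25.1 CPM (3.6, limits 2.85 to 4.64). Over *Zp*-rich oocytes alone it was 15.9 and 11.7 CPM (1.36, limits 0.837 to 2.24). *Cdkn1a* over *Zp*-rich oocytes was 46.6 and 24.8 CPM (1.87, limits 1.38 to 2.57), below 2-fold. Of markers with at least 25 UMIs in Chek2KO nonIR, 2 of 6 of stroma were 2-fold lower over all growing oocytes (median log2 ratio −0.64), none of 3 of granulosa and none of 4 of erythroid cells passed 2-fold, and the part of these cells was not tested. Among other oocytes 114 (0.962%) and 30 (0.253%) of 11856 genes were 2-fold higher and lower.

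Chek2KO IR held 8 *Gdf9*-rich oocytes and Chek2KO nonIR 1, whose ratio of *Gdf9* to zona UMIs (0.579) was the lowest of that class. The genes ranked highest in Chek2KO IR were *Pak7*, *Gm13023*, *Upp1*, *Olfr655*, *Ehf*, *Tcstv3*, *Obox1*, *Obox2*, *Gm813* and *Spry4*. All of these but *Gm813* had at most 19 UMIs in Chek2KO nonIR and so entered this comparison only through Chek2KO IR. *Obox2* was 55.9 and 5.88 CPM (ratio 9.27, limits 5.98 to 16) and *Gm813* 195 and 26.3 CPM (7.39, limits 5.95 to 9.38). *Bmp15* was 274 and 71.2 CPM (3.85, limits 3.35 to 4.45) over all growing oocytes, and 34.9 and 41.3 CPM (0.848, limits 0.635 to 1.13) over the 8 *Zp*-rich oocytes of each library. *Fgf8* was 103 and 20.1 CPM over all growing oocytes, and 1.55 and 10.2 CPM (0.168, limits 0.0387 to 0.434) over *Zp*-rich ones. *Gdf9* itself was 3918 and 2530 CPM over all and 2026 and 2090 CPM over *Zp*-rich oocytes. Within *Zp*-rich oocytes 27 of 8621 genes (0.313%) were 2-fold higher and 64 (0.742%) 2-fold lower in Chek2KO IR, and none of 15 p53 targets was 2-fold higher. All 5 stroma markers with at least 25 UMIs in the *Zp*-rich oocytes of Chek2KO nonIR were 2-fold lower, beside 1.44% of all genes with that many UMIs. Within *Gdf9*-rich oocytes, 8 against 1, the counts were 600 (8.1%) and 135 (1.82%) of 7403. *Mdm2* ran from 52.4 to 95.8 CPM in the *Zp*-rich oocytes of Chek2KO IR and from 48.2 to 77.5 CPM in those of Chek2KO nonIR.

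Among the 10 genes ranked lowest by that limit in Chek2KO IR growing oocytes were *Satl1*, *Nlrp5*, *Tsga8*, *Tmem267*, *Loxl2*, *Gm6878*, *Rps27*, *Crabp1* and *Rps6kc1*. *Rps27*, a ribosomal protein gene with many UMIs, had a ratio of 0.519, within 2-fold. *Nlrp5*, a core subunit of the subcortical maternal complex, was 664 CPM in Chek2KO IR and 1960 CPM in Chek2KO nonIR (ratio 0.339, limits 0.325 to 0.353). In WT it was 894 CPM with and 1630 CPM without irradiation. In other oocytes *Nlrp5* was 469 and 793 CPM in Chek2KO IR and nonIR, and 568 and 722 CPM in WT IR and nonIR. It was thus lower in the irradiated library of both genotypes in both classes, but the classes share their libraries, with 1 library per condition. Single cells spread widely: in *Zp*-rich oocytes it ran from 0 to 2074 CPM (median 113) in Chek2KO IR, from 85.3 to 3553 CPM (median 2053) in Chek2KO nonIR, from 3.8 to 2167 CPM (median 1184) in WT IR and from 632 to 3194 CPM (median 1593) in WT nonIR. In the bulk libraries *Nlrp5* was 971 ± 253 CPM (SD, n = 6) in WT nonIR and 958 ± 177 CPM in WT IR, and 724 ± 335 and 777 ± 298 CPM in Chek2KO nonIR and IR. The bulk difference with irradiation was −0.02 ± 0.32 (SE) on the log2 scale in WT (edgeR adjusted p = 0.999) and 0.10 ± 0.32 in Chek2KO (edgeR adjusted p = 1).

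Without irradiation, of 10252 genes 43 (0.419%) were at least 2-fold higher and 432 (4.21%) at least 2-fold lower in growing oocytes of Chek2KO nonIR than of WT nonIR. When single-cell CPM were averaged, 201 were higher. The shares were 0.866% and 2.82% among *Zp*-rich, 0.94% and 5.95% among *Gdf9*-rich (1 against 9 cells) and 0.442% and 5.44% among other oocytes. *Bmp15* was 71.2 and 145 CPM (0.491, limits 0.422 to 0.567) over all growing oocytes, and 41.3 and 34.5 CPM (1.19, limits 0.896 to 1.6) over *Zp*-rich ones. This comparison shares the WT nonIR library with that of WT IR, and *Gm37350*, *Gm2044*, *AC167229.1* and *Gm14226* were among the 10 ranked lowest in both. *Gm2044* was 182 CPM in WT nonIR, 20.1 CPM in WT IR, 6.50 CPM in Chek2KO nonIR and 8.14 CPM in Chek2KO IR. *Ccnd2*, a cyclin abundant in granulosa cells, was 154, 51.6, 13.6 and 20.6 CPM in the same order. Of 11 granulosa markers with at least 25 UMIs in WT nonIR, 9 were 2-fold lower in Chek2KO nonIR, as were 4 of 7 genes of dissociation stress (median log2 ratio −1.26) and 1 of 1 of surface epithelium, beside 5.82% of all 10934 genes with that many UMIs. Their part in the lower genes was not tested.

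Also among the 10 ranked lowest was *Gm15446*, with 0 UMIs in Chek2KO nonIR and 343 UMIs in 36 of 40 growing oocytes of WT nonIR. It was 54.9 and 52.6 CPM in WT nonIR and WT IR, and 0 and 0.189 CPM in Chek2KO nonIR and Chek2KO IR. *1010001B22Rik* was 20 and 21.8 CPM in the WT libraries, with no UMI in either Chek2KO library. *Gm15446* lies at chr5:109923400-109943936 and *1010001B22Rik* at chr5:109995511-109996398 in GRCm38, 0.896 and 0.844 Mb from *Chek2* (chr5:110839979-110874145), and they were the 2 of the 20 named genes on the chromosome of *Chek2*. A difference that comes with the *Chek2* allele and one that comes with other differences between the lines cannot be told apart here. The remaining genes ranked lowest were *Olfr655*, *Arhgap31* and *Fndc5*. Among the 10 genes ranked highest were *Wdfy1*, *Tsga8*, *Crabp1*, *Satl1*, *Gm6878*, *S100z*, *Ndufa1*, *Epp13* and *Gpr143*, of which *Ndufa1* had a ratio of 1.98, within 2-fold. *Wdfy1* was 5.44 and 5.24 CPM in WT nonIR and WT IR and 26.6 and 25.4 CPM in Chek2KO nonIR and Chek2KO IR (ratio 4.85 without irradiation, limits 3.25 to 7.51). *Satl1* did not keep to the genotype, at 45.8, 82.0, 126 and 32.2 CPM. *Tsga8*, *Crabp1* and *Gm6878* were 12.4, 56.9 and 58.5 CPM in Chek2KO nonIR. They were lower in Chek2KO IR (2.84, 24.4 and 24.8 CPM), nearer to WT nonIR (2.08, 14.6 and 22.7 CPM). Like *Satl1*, they were among the 10 ranked lowest in Chek2KO IR, and both comparisons share the Chek2KO nonIR library.

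The bulk libraries gave a replicated measure of these named genes in whole ovary, where RNA of all cell types is mixed. The libraries held 17824920 to 32605519 counts. In bulk, fewer cells of a type and less RNA per cell cannot be told apart. Calls were made with edgeR's quasi-likelihood test at an adjusted p of at most 0.05 and at least 2-fold. The 10 genes ranked highest in WT IR growing oocytes had at most 9 UMIs in WT nonIR and so entered that comparison only through WT IR. Of these, 7 were also called higher in WT IR ovaries, beside 0.859% of 26790 genes tested (0.216% were called lower). *Fermt3* was 2.15 ± 0.586 CPM in WT nonIR and 26.4 ± 7.18 CPM in WT IR (SD, n = 6), a difference of 3.6 ± 0.39 on the log2 scale (edgeR adjusted p = 7.43e-07). The 3 not called were *Procr*, *Slc6a8* and *Csf2rb*, of which *Slc6a8* was higher by adjusted p alone, as were 1.53% of all genes. Of the 10 ranked lowest, 9 could be tested and none was called by either adjusted p alone or with the fold. Of the genes ranked highest and lowest in Chek2KO IR growing oocytes, none of 9 and none of 10 were called, beside 0.00373% of all genes called higher, 0.0112% higher by adjusted p alone and none lower. Between genotypes without irradiation 4 of the 18 that could be tested were called, in the direction of the growing oocytes. *Gm15446* was 23.9 ± 3.16 CPM in WT and 2.66 ± 0.156 CPM in Chek2KO (−3.17 ± 0.10 on the log2 scale, edgeR adjusted p = 1.9e-16). *1010001B22Rik* was 1.29 ± 0.275 and 0.136 ± 0.0703 CPM (−3.19 ± 0.43, edgeR adjusted p = 0.000134). *Wdfy1* was 22.5 ± 1.5 and 64.2 ± 3.8 CPM (1.51 ± 0.07, edgeR adjusted p = 2.52e-13), and *Tsga8* was the remaining call. Of all genes, 0.597% were called higher and 0.190% lower between the genotypes. *Gm37350*, *Gm2044*, *Gm14226* and *Ccnd2* were not called between the genotypes in bulk (edgeR adjusted p 0.408 to 0.998). These genes were taken from the single-cell comparisons and looked up in bulk after their single-cell values had been seen, so their counts are descriptions.

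Genes of the growing oocyte were followed in bulk through a list of 38, which together took 0.586% to 1.36% of the counts of a library. Of these, 32 had at least 25 UMIs in the other oocytes of each single-cell library. In all 4 libraries 22 of the 32 were 2-fold higher in growing oocytes, beside 4.36% of all genes. The list is therefore not particular to growing oocytes, and its bulk levels cannot be assigned to them alone. *Gdf9* ran from 588 to 828 CPM with a median of 685 in the 6 WT nonIR libraries and from 597 to 735 CPM (median 693) in WT IR. It ran from 226 to 604 CPM (median 509) in Chek2KO nonIR and from 235 to 548 CPM (median 526) in Chek2KO IR. The means were 701 ± 99.2, 685 ± 47.6, 486 ± 135 and 476 ± 121 CPM (SD, n = 6), and the irradiated and non-irradiated libraries of a genotype overlapped. Every Chek2KO IR library lay below every WT IR library, and without irradiation 1 Chek2KO library (604 CPM) lay inside the WT range.

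None of the 38 genes was called with irradiation in WT or in Chek2KO, by edgeR or by DESeq2 at the same limits, and 2 and 0 had an unadjusted edgeR p under 0.05, beside 11.4% and 4.4% of all genes. Their log2 fold changes had medians of −0.04 and 0.01, beside −0.004 and 0 for all genes. *Gdf9* changed by −0.03 ± 0.18 (SE) on the log2 scale with irradiation in WT (edgeR adjusted p = 0.991) and by −0.03 ± 0.18 in Chek2KO (edgeR adjusted p = 1). The interaction of genotype and irradiation was called for none of the 38 by either tool, with 1 unadjusted p under 0.05, beside 9.14% of all genes. Of all genes, 0.131% and 0.493% had a higher or lower interaction at 2-fold, and 0.34% and 0.694% by adjusted p alone. Between genotypes without irradiation none of the 38 was called by either tool at 2-fold, while 22 had an unadjusted edgeR p under 0.05 and were lower in Chek2KO, beside 9.97% of all genes, and 37 of 38 had a value below 0. The median log2 fold change was −0.43, beside 0.01 for all genes. By adjusted p alone 2 of the 38 were lower in Chek2KO, beside 2.22% of all genes, and none was higher, beside 3.12%. These were *Zp1* (387 ± 41.5 and 282 ± 54.7 CPM, −0.46 ± 0.12 on the log2 scale, edgeR adjusted p = 0.0236) and *Gja4*, the gap junction protein that joins the oocyte to granulosa cells (99.1 ± 10.5 and 73.7 ± 14.4 CPM, −0.43 ± 0.12, edgeR adjusted p = 0.0411). *Gdf9* had −0.53 ± 0.18 (edgeR adjusted p = 0.0905) and *Bmp15* −0.58 ± 0.39 (edgeR adjusted p = 0.425).

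The library labelled replicate 6 was the lowest of both Chek2KO groups. *Gdf9* was 226 and 235 CPM in these 2 libraries, against 480 to 604 CPM in the other 10 Chek2KO libraries. *Bmp15* was 8.26 and 7.47 CPM in them, against 48.6 to 93.0 CPM. The list took 0.586% and 0.657% of their counts, against 0.997% to 1.17% in the other Chek2KO libraries. A fit without both of them was added after their low levels of these same genes had been seen, so its p-values are descriptions. In that fit the spread narrowed and 16 of the 38 genes were lower in Chek2KO nonIR than in WT nonIR by adjusted p alone, beside 3.72% of the 26480 genes tested, and none at 2-fold. *Gdf9* then stood at −0.38 ± 0.08 on the log2 scale (edgeR adjusted p = 0.0097), *Zp3* −0.27 ± 0.07 (adjusted p = 0.0237) and *H1foo* −0.44 ± 0.09 (adjusted p = 0.0054). The median over the list was then −0.29. In WT, *Oas1c* (−0.22 ± 0.05, edgeR adjusted p = 0.0186) and *Gja4* (−0.23 ± 0.06, edgeR adjusted p = 0.0408) were then lower with irradiation by adjusted p alone, 2 of the 38, beside 1.7% of all genes in that fit.

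**Figure D5:**
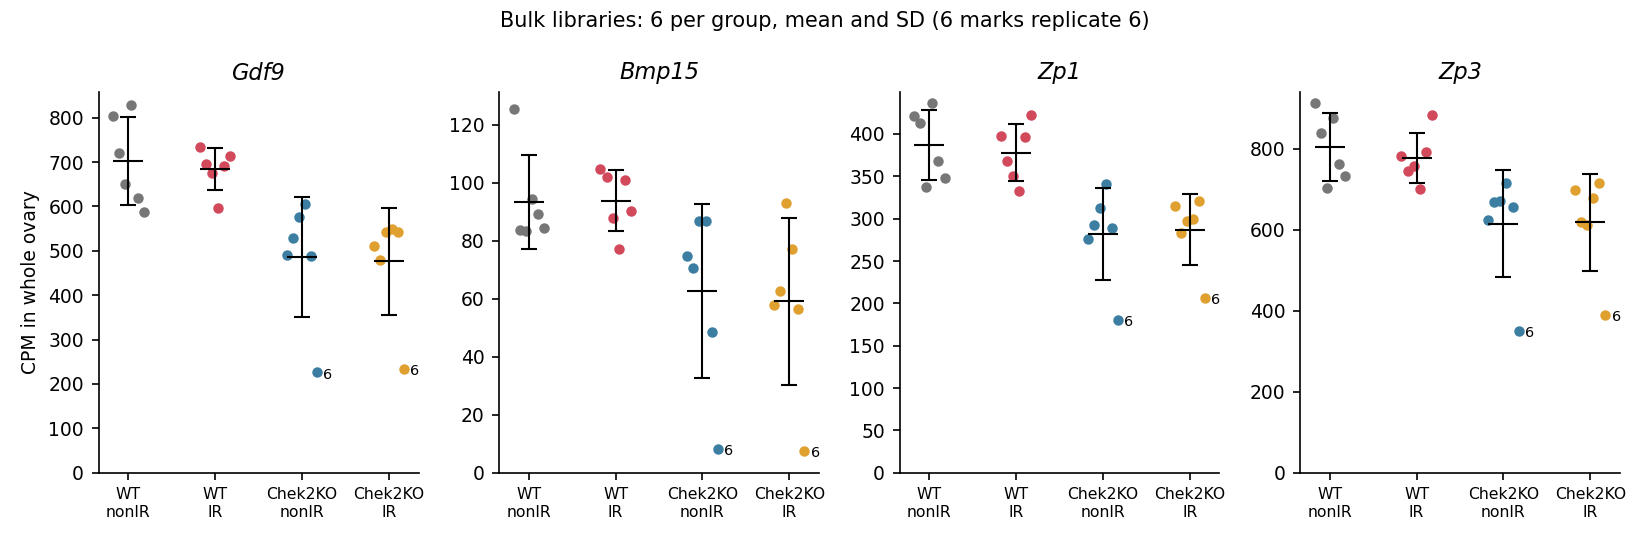
CPM in whole ovary of *Gdf9*, *Bmp15*, *Zp1* and *Zp3* on linear axes from 0, with 1 point per library (6 per group), a horizontal mark at the mean and an SD bar. The WT groups overlap each other, and the 2 points marked 6 are the Chek2KO libraries that lie lowest, at 226 and 235 CPM for *Gdf9*.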

How the data were processed

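UMI counts per gene and barcode of 4 single-cell libraries and estimated counts of 24 bulk libraries were used. For the single cells, the authors made the deposited counts with Cell Ranger on mm10 (GRCm38); the deposited matrices still held barcodes outside the study's own filters. For bulk, the authors' deposited estimated counts came from Salmon 1.3.0 after Trim Galore 0.6.5, per the submitters' processing notes, and were rounded to whole numbers here.

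UMIs were summed over the cells of a class in a library and scaled to CPM. Genes needed 100 UMIs for growing against other oocytes and 50 UMIs between libraries, and lists were counted over members with 25 UMIs in the reference cells, a limit set after the data were seen; ratios had 0.5 UMI added to each side and exact Poisson 95% limits, and 2-fold was the size used for counts. Doublets were called with Scrublet in scanpy 1.11.5 and compared, not removed. Totals of growing oocytes were 3231791 to 6250230 UMIs a library, so 3 UMIs were 0.48 to 0.928 CPM. Limits and floors cover counting error only.

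In bulk, genes with at least 10 counts over 24 libraries (26790 of 44674) were fitted together with edgeR 4.0.16 (quasi-likelihood, TMM, 4 groups, R 4.3.3), with Benjamini-Hochberg adjustment; DESeq2 1.42.0 was an alternative. Each bulk group held 6 females, with RNA taken from paired ovaries, per the study's text; the labels number the libraries and name no animals. Samples were grouped by their labels. Replicate numbers were not taken as pairs, since not every same-number correlation of deviations was above 0.1: 5 of 6 were in Chek2KO (0.0577 to 0.657) and 3 of 6 in WT (−0.0469 to 0.397). The means were 0.317 in Chek2KO and 0.148 in WT, against −0.0481 and −0.0299 between different numbers. Spread shared by libraries of the same number was therefore left in the main fit.

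Genes named were the 6 markers, members of fixed gene lists, genes the study named for oocytes, the 10 highest and 10 lowest per comparison (by the least extreme of 4 library ratios, or by the Poisson limit nearest 1), and the 10 genes ranked most like *Gdf9*. A gene that the rule named is not reported here. Members and lists were chosen with earlier results of these data known. The list of genes named by the study and its bulk response list were chosen by the study on these samples. Alternatives were other *Gdf9* and UMI minimums, thinning to 10000 UMIs, means of single cells, removal of doublet calls or of cells over 1% somatic UMIs, and, in bulk, other filters, scaling, a replicate block and each replicate left out. The bulk fit without both Chek2KO libraries labelled replicate 6 was added after the data were seen. Scripts were tested on simulated counts.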

Additional observations from a re-analysis of the deposited data

Results flagged for a closer look

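In bulk, the level of 8 genes was examined within each of the 4 groups of 6 libraries, 32 sets in all, for a library whose gap to its nearest neighbour was large against the range of its group (Dixon's test at 95%). Chance alone marks about 1 in 20 such sets when they are independent, and 11 were marked. These sets are not independent, since the 8 genes were read in the same libraries. Of these, 10 were the library labelled Chek2KO replicate 6, always as the lowest of its group. *Gdf9* was 226 CPM in the nonIR and 235 CPM in the IR library of that number. *Zp2* was 803 and 883 CPM, *Zp3* 351 and 391 CPM, and *H1foo* 82.0 and 94.0 CPM in the same order. *Zp1* was marked in the IR library alone, at 206 CPM, and *Ooep* in the nonIR library alone, at 190.4 CPM. The remaining one was *Bmp15* in WT nonIR replicate 1, the highest of its group at 125 CPM. The cause of the low levels in replicate 6 was not tested.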

How the results depend on the processing

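Removing Scrublet doublet calls or cells over 1% somatic UMIs, raising the UMI minimum to 20000, or taking other oocytes below 200 CPM of *Gdf9* left every count and share within 1.5 times or within its limits. With a *Gdf9* minimum of 500 CPM the WT nonIR share was 0.569% (0.414% as reported), and 424 genes were lower in WT IR (226 as reported); with 2000 CPM, 344 were. Averaging single-cell CPM gave 494 genes lower in WT IR, 99 lower in Chek2KO IR (55 as reported) and 201 higher in Chek2KO nonIR than in WT nonIR (43 as reported). Thinned to 10000 UMIs, 327 genes were higher and 125 lower in growing than in other oocytes, 17 and 33 in WT IR, 27 and 5 in Chek2KO IR, and 100 lower between genotypes, since fewer genes passed the UMI minimum. The log2 ratio of *Chek2* between genotypes without irradiation was then 2.00, opposite in sign to the ratio without thinning. Equal UMIs in the 10 oocytes of Chek2KO nonIR and the 40 of WT nonIR also give this value, so its sign was not read. Doubling the UMI minimum per gene gave 165 and 119 genes in WT IR, 13 lower in Chek2KO IR, and 18 and 235 between genotypes. Added after seeing the data, a minimum of 100000 UMIs gave shares of 0.176% in WT nonIR and 0.0967% in WT IR. *Zp*-rich oocytes alone had shares of 0.0828%, 0.0483% and 0.0872% in WT nonIR, WT IR and Chek2KO IR, with 27 genes higher in Chek2KO IR and 76 higher and 247 lower between genotypes; the log2 ratios of *Bmp15* and *Fgf8* turned to −0.24 and −2.57 in Chek2KO IR and to 0.25 and 2.92 between genotypes. *Gdf9*-rich oocytes alone had shares of 0.0931%, 0.0483%, 0.011% and 0.0872% in the 4 libraries, 600 and 135 genes in Chek2KO IR and 73 higher between genotypes. In bulk the count of listed genes called was 0 in each contrast with DESeq2, other filters and scaling, and 0 with each replicate left out. In the main fit the listed log2 fold changes lay between −0.72 and 0.33, short of 2-fold. Counts at 2-fold, also with the replicate block, therefore cannot show whether smaller changes hold. By adjusted p alone 2 were lower between genotypes, and 16 in the later fit without both Chek2KO libraries labelled replicate 6. With the replicate block the count was also 0 in each contrast; in Chek2KO 4 of 6 libraries and in WT 1 of 6 correlated best with their own number. Depth limits genes of a few UMIs, and the single library per condition limits all single-cell comparisons.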
